A study of Mus musculus with 2 samples.

Results

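The splice junctions of the albumin locus were described in adult mouse liver. They were all rows of the deposited junction list, on mouse build mm9, that began and ended within a 150-kb window of chromosome 5, on either strand. The window held 1032 of the 352887 junctions listed, 1001 on the plus strand and 31 on the minus strand. A junction was called dominant when it held at least 1% of the window's reads in both libraries, and rare otherwise, which gave 14 dominant and 1018 rare junctions.

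The series holds 1 group of 2 libraries, so no condition was compared. Both came from liver of C57BL/6J mice aged 8 weeks, taken from littermates of both sexes that were pooled, and both carry the same donor identifier. They are stranded paired-end libraries of 76-base reads from polyadenylated RNA longer than 200 bases, with spike-in RNA added, and are labelled biological replicates 1 and 2. The junction list gives reads of 2 libraries, named R1 and R2 in the list itself, and neither the labels nor the files tie these names to replicates 1 and 2. They are therefore kept apart below. The list held 24692822 junction reads in R1 and 25796894 in R2, and the gene tables held 59676342 estimated counts in replicate 1 and 60600117 in replicate 2. All 9 hepatocyte markers, such as the transcription factor gene Hnf4a and the transport protein genes Ttr and Trf, were above 1 TPM in both replicates.

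Serum albumin is the main protein of blood plasma and is made by hepatocytes. Its gene, Alb, lies in a row with genes of the same family: Afp encodes alpha-fetoprotein, which is abundant in fetal liver and silenced after birth, and Afm encodes afamin, a plasma carrier of vitamin E. Splicing joins the end of each exon (the donor, or upstream site) to the start of the next (the acceptor, or downstream site), and a read that crosses such a join is a junction read. Proteins of this family are built from repeated homologous domains.

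All 14 dominant junctions were introns of Alb. Their lengths matched, in order, the 14 introns of transcript Alb-201 in GENCODE M21, and the 13 exons between them had the annotated lengths. The joins at the most read junctions (exons 11 to 12 and 13 to 14) and at the least read one (exons 1 to 2) are shown first, because the range of the dominant junctions lies between them. The joins downstream of exons 2 and 4 in Alb and in Afm follow, because rare junctions described below ran from these Alb exons into Afm. Each line gives the last 15 bases of the upstream exon in lower case and the first 15 bases of the downstream exon in capitals, from GENCODE M21 transcripts on GRCm38, plus strand of chromosome 5.
Alb exons 11 and 12: tgtgtggaagactatCTGTCTGCAATCCTG
Alb exons 13 and 14: tgcttctcgactgagGGTCCAAACCTTGTC
Alb exons 1 and 2: ttcgccgagaagcacACAAGAGTGAGATCG
Alb exons 2 and 3: acatttcaaaggcctAGTCCTGATTGCCTT
Afm exons 2 and 3: gaacacgacatacctGGCCATCATCGCGTT
Alb exons 4 and 5: cacctttatgggacaCTATTTGCATGAAGT
Afm exons 4 and 5: atcttttctacacctCTATATGTATGAGGT
In GRCm38, Alb exon 11 ends at position 90472143 and exon 12 begins at 90472461, exon 13 ends at 90474699 and exon 14 begins at 90475269, and exon 1 ends at 90461013 and exon 2 begins at 90461721. The joins downstream of exon 2 in Alb and Afm shared 15 of 30 bases, and those downstream of exon 4 shared 18 of 30. Within Alb, the joins downstream of exons 2 and 6 and of exons 2 and 10 shared 12 of 30, those of exons 6 and 10 and of exons 2 and 4 shared 11, and those of exons 11 and 13 shared 7.

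The dominant junctions held nearly all of the reads of the locus. In R1 they held 2149644 reads against 12634 in the rare junctions, a share of 99.42% (95% Wilson interval 99.405 to 99.426). In R2 they held 2579056 reads against 13051, a share of 99.5% (99.488 to 99.505). These intervals cover counting error only, since PCR copies were not told apart. The locus as a whole held 8.757% of all junction reads in R1 and 10.05% in R2. The least read dominant junction, Alb intron 1, held 1.165% of the window's reads in R1 and 1.577% in R2. The most read rare junction, Afm intron 11, held 0.06341% and 0.04575%. Intron 1 thus lay just above the threshold in R1, with intron 5 next at 2.264% and 2.13%, while no rare junction came close to it from below.

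**Figure D1:**
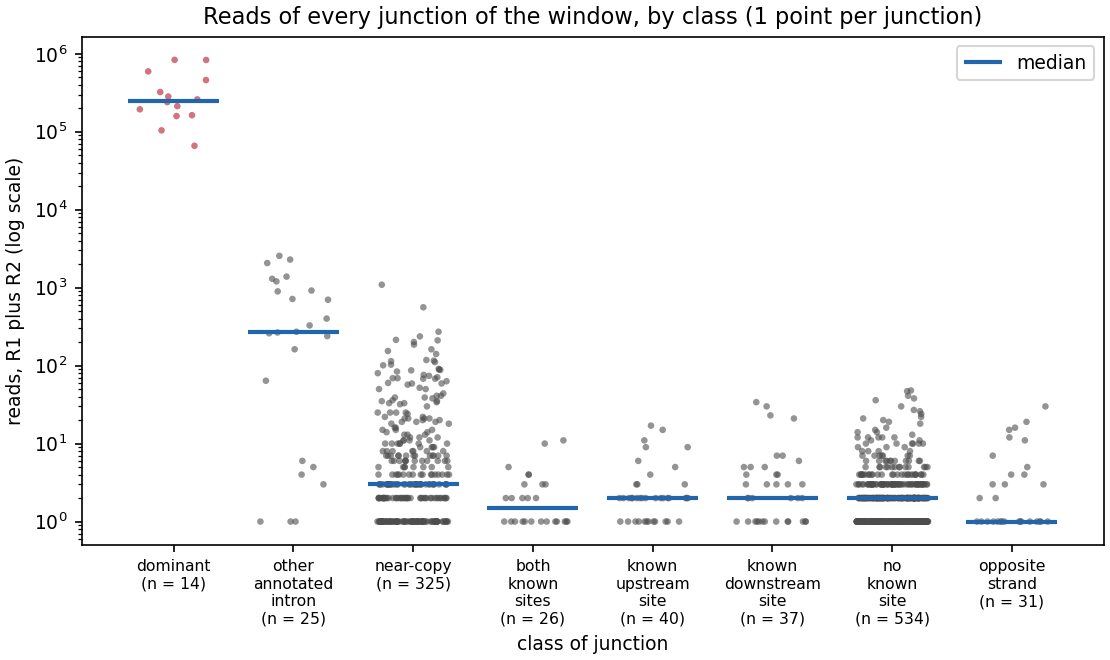
Reads of R1 plus R2 for each of the 1032 junctions, 1 point per junction on a log scale, with the class along the horizontal axis and the median as a blue bar. The 14 dominant junctions lie between 66055 and 836266 reads, above every rare junction, of which the highest has 2557.

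Reads differed widely among the 14 Alb introns although all belong to 1 transcript. Intron 11, from 90901170 to 90901486 in mm9, was the most read junction of the whole list, with 356444 reads in R1 and 479822 in R2. Intron 13 followed in place 2, with 332979 and 500114 reads, and intron 7 in place 3, with 273187 and 320702. Introns 8 and 2 were in places 4 and 5, with 209526 and 250415 reads for intron 8 and 171614 and 151551 for intron 2. Places are by the sum of both libraries.

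At the other end, intron 1 had 25182 reads in R1 and 40873 in R2, and intron 5 had 48946 and 55218. Introns 3 and 14 followed, with 66303 and 96737 reads for intron 3 and 76509 and 82320 for intron 14. Introns 4, 6, 9, 10 and 12 lay between 95709 and 149466 reads in R1 and between 98325 and 138983 in R2. The highest value was 14.2 times the lowest in R1 and 12.2 times in R2. The 14 introns kept nearly the same order in both libraries (Spearman's rho 0.965 across introns, a description over 14 points of the same transcript). Reads in R1 had a rho of 0.451 with intron number, -0.27 with intron length, 0.311 with the length of the shorter neighbouring exon and 0.169 with the GC content of the 60 bases of mRNA on each side. In R2 these were 0.341, -0.393, 0.345 and 0.118. A whole-number score deposited beside each junction, which the files do not explain, ranged only from 6195 to 16802 over the same introns, a ratio of 2.71.

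**Figure D2:**
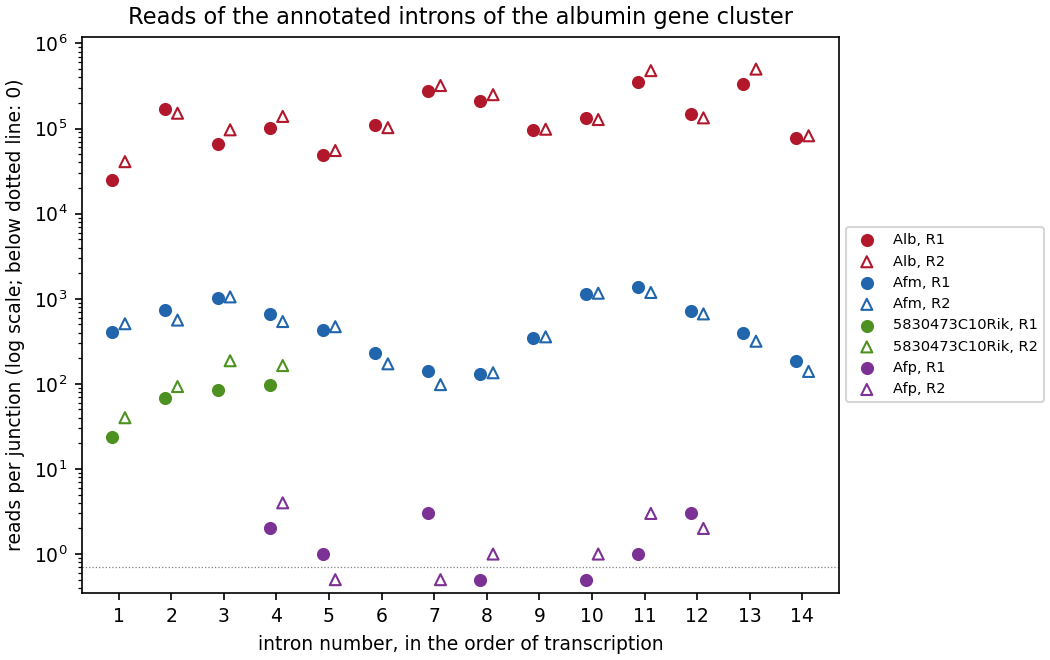
Reads of each annotated intron in R1 (filled circles) and R2 (open triangles) on a log scale, against the number of the intron in its gene, with genes in colours and values of 0 drawn below the dotted line. The Alb introns lie between 25182 and 500114 reads, those of Afm between 98 and 1371, and the Afp introns found at 4 reads or fewer per library.

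The other annotated introns of the window belonged to 3 genes and numbered 25. They held 62.5% of the rare reads. Afm showed all of its 14 introns, with the 13 exons between them at the annotated length, and 7908 reads in R1 and 7365 in R2. Its junctions ranged from 131 to 1371 reads in R1 and from 98 to 1186 in R2. Introns 10 and 11 were the highest, with 1130 and 1163 reads for intron 10 and 1371 and 1186 for intron 11. Introns 7 and 8 were the lowest, with 141 and 98 reads for intron 7 and 131 and 135 for intron 8. Across intron numbers, the reads of Alb and Afm had a Spearman's rho of 0.064 (14 introns, a description), although 9 of the 15 exons have 1 length in Alb, Afp and Afm.

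Afp showed 7 of its 14 introns, with 10 reads in R1 and 11 in R2 in all and no more than 6 per junction in the sum. Intron 4 had 2 and 4 reads, intron 11 had 1 and 3, and intron 12 had 3 and 2. The other 4 introns found were read in 1 library only. The gene 5830473C10Rik, downstream of Afm, showed the first 4 of its 13 introns before the window ended. They held 274 reads in R1 and 484 in R2, from 64 to 272 per junction in the sum.

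In the gene tables, levels were compared on the TPM scale, which is per length. Alb measured 32113 TPM (replicate 1) and 34763 TPM (replicate 2), Afm 97.49 and 92.87, 5830473C10Rik 17.88 and 32.12, and Afp 0.09 and 0.20. Afp rested on 8 and 19 reads. Gc, the vitamin D carrier of the same family, which lies outside the window, was at 2199 and 2014 TPM. Alb had 1 transcript in the tables, while a second Afm transcript took 6.81% of Afm in replicate 1 and 11.18% in replicate 2.

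Between the replicates, 57% of the 14533 genes tested, 29.4% higher and 27.7% lower in replicate 1, passed an exact binomial test on their counts (Benjamini-Hochberg adjusted p below 0.05, TMM scaling), so a call for a single gene stands against a high background. The test compares 2 libraries only. On the log2 scale, replicate 1 over replicate 2 was 0.19 for Afm (exact test, adjusted p = 2.62e-17), -0.71 for 5830473C10Rik (4.99e-64) and -1.05 for Afp (0.145, not called). Alb was at 0.02 (3.99e-57), which became -0.11 when scaled by total reads, a scaling that moved the median of all genes tested to -0.125 (log2). All 9 regulators of the family listed passed, 5 higher and 4 lower in replicate 1. Among them Zhx2 and Zbtb20, known as postnatal repressors of Afp, were at 0.39 and -0.07 (exact tests, adjusted p = 4.45e-09 and 0.0365). Summed TPM of the 4 Kupffer cell markers was 103.1 (replicate 1) and 172.3 (replicate 2), and that of the 4 endothelial markers 58.78 and 77.36. The sums of the 9 hepatocyte markers, 88550 and 83990, and of the 4 cholangiocyte markers, 5.01 and 4.29, went the other way. The part of these cell types in the differences was not tested, and fewer cells of a type cannot be told apart from less RNA per cell.

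Next, R1 was compared with R2 at each junction, scaled by total junction reads, with the same exact test over the 83247 junctions of the list with at least 20 reads. Of these, 27.8% passed, 13.6% higher and 14.1% lower in R1. All 14 Alb introns passed, 5 higher and 9 lower in R1, and at their depth small differences are called. The log2 ratio of R1 over R2 was lowest at intron 1 (-0.64, exact 95% interval -0.66 to -0.61) and at intron 13 (-0.52, interval -0.53 to -0.52). It was highest at intron 2 (0.24, interval 0.23 to 0.25) and intron 12 (0.22, interval 0.21 to 0.23). Intron 9 was closest to 0, at 0.02 (exact test, adjusted p = 0.0016), and turned to -0.04 with DESeq2 size factors.

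The libraries thus differed by intron within 1 transcript, and neighbouring introns could lie on opposite sides of 0. Introns 11, 12 and 13 were at -0.37, 0.22 and -0.52. The ratio had a Spearman's rho of 0.67 with intron length, -0.262 with GC content, -0.126 with the shorter neighbouring exon and 0.169 with intron number (14 introns, descriptions). The median size of the log2 ratio was 0.209 over the Alb introns. It was 0.251 over the 41 other junctions with at least 66055 reads, the sum at Alb intron 1. Over the 631 other junctions with at least 10000 reads it was 0.244. None of these others exceeded 287851 reads, so depth was not matched.

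**Figure D3:**
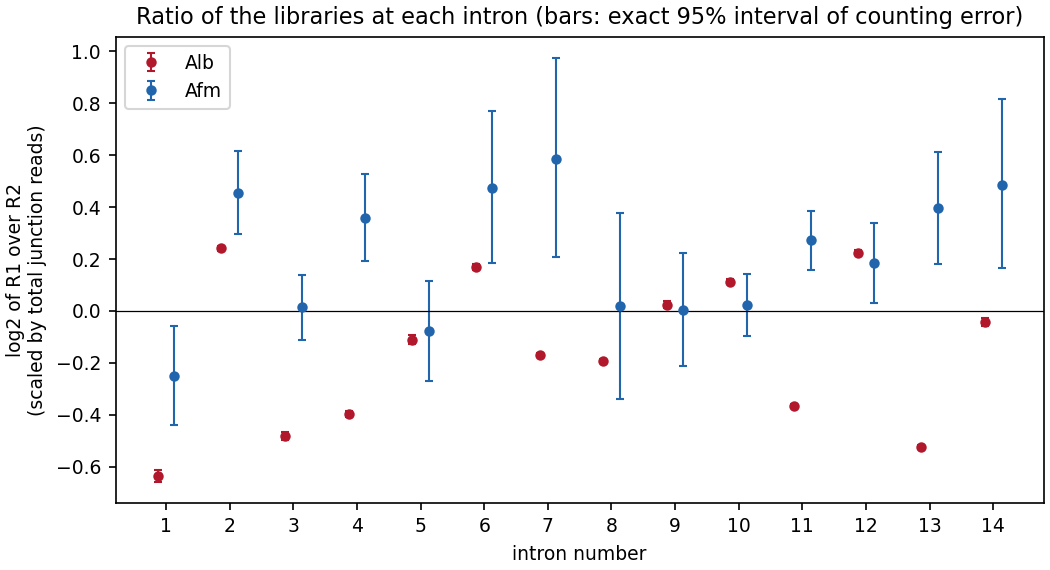
Log2 ratio of R1 over R2 for each intron of Alb (red) and Afm (blue), scaled by total junction reads, with exact 95% intervals of counting error as bars. The Alb introns run from -0.64 at intron 1 to 0.24 at intron 2, with intervals mostly narrower than the points.

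Of the 14 Afm introns, 8 passed (57.1%), 7 higher and 1 lower in R1, against 27.8% of all junctions tested, 13.6% higher and 14.1% lower. The Afm introns had 239 to 2557 reads each, far above the minimum of 20, and the share was not compared at equal depth. Intron 1 was the lower one, with 410 reads in R1 and 509 in R2 (log2 ratio -0.25, exact test, adjusted p = 0.0386). Intron 2 had 738 and 562 reads (0.46, exact test, adjusted p = 2.84e-07). Of the 4 introns of 5830473C10Rik, 2 passed, both lower in R1. Its intron 3 had 85 reads in R1 and 187 in R2 (-1.07, exact test, adjusted p = 9.84e-08). No Afp junction reached 20 reads.

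Most rare junctions were thinly read and irregular. A single read supported 382 of the 1018 (37.5%), close to the 37.6% of the junctions outside the window. Only 284 (27.9%) had a read in both libraries, against 41.0% outside the window, where the deepest junctions were kept. At equal reads the shares lay closer. They were 14.8% for rare junctions and 16.5% outside the window at 2 to 3 reads, 53.9% and 61.0% at 4 to 9 reads, and 95.1% and 97.9% at 10 to 49 reads. From 50 reads, all 56 rare junctions were read in both libraries, as were 99.9% outside the window. Flag A of the list, which the files do not explain, was set on all 14 dominant junctions and on 25 rare ones. All of them matched an annotated intron by length, but only junctions with flag A were tried for a match. Outside the window the flag was set on 136702 of 351855 junctions. The 25 rare ones were the annotated introns of the other 3 genes described above. Beside these 25, the rare junctions fell into near-copies of an annotated junction, junctions that used known splice sites in another combination, junctions with 1 or no known site, and minus-strand junctions.

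The near-copies were the largest class by reads after the annotated introns. They numbered 325, had both ends within 20 bases of the ends of an annotated junction on the same strand, and held 28.8% of the rare reads. Alb introns were the parents of 311, with 3335 reads in R1 and 4027 in R2. None had the length of its parent. A difference in length of 1 base made up 63.0% of their reads, and of 1 or 2 bases 87.4%. Longer near-copies held 75.6% of the reads, and both ends were moved in 242 of the 311.

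**Figure D4:**
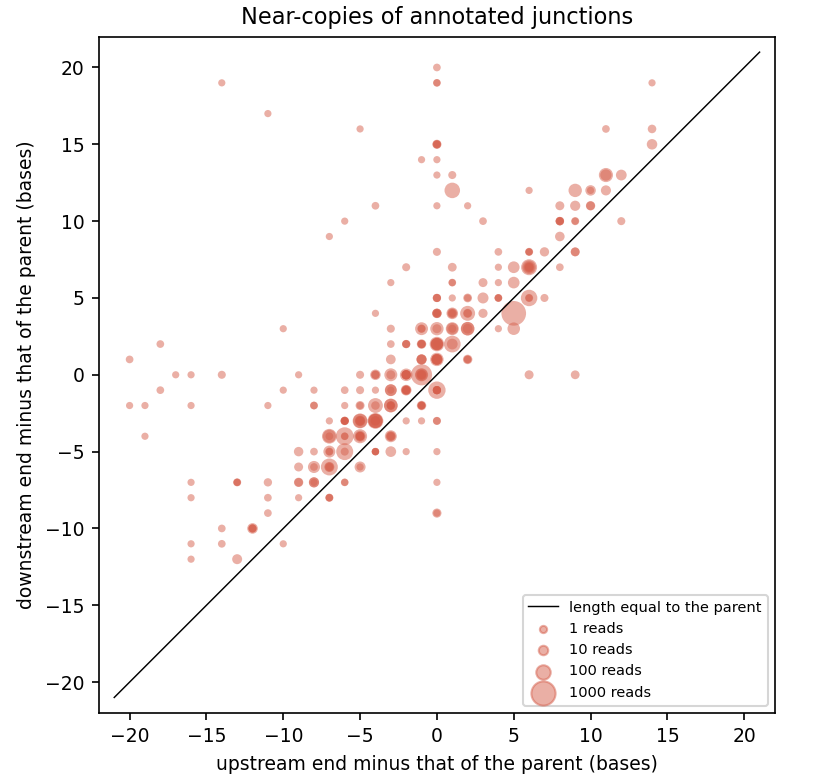
Offsets in bases of the upstream end (horizontal) and downstream end (vertical) of the 325 near-copies from their parent, with point area growing with reads and a line where the length would equal the parent's. The points follow the line without lying on it, and most lie just above it, where the near-copy is longer.

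Near-copy reads were set against the reads of their parents. They amounted to 1.55 per 1000 parent reads in R1 and 1.56 in R2 over the 14 introns. Intron 14 stood above the others, with 7.89 per 1000 reads in R1 and 7.5 in R2. Most of these came from 1 junction of 536 and 555 reads, moved by 5 bases at the upstream end and 4 at the downstream end and so 1 base shorter than the intron. The next were intron 3, with 2.44 and 2.8 per 1000, and intron 6, with 2.2 and 2.15. Intron 1 was lowest in R1, at 0.437 with 0.979 in R2, and intron 9 lowest in R2, at 0.58 with 0.784 in R1.

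Counted in the same way, the median over the 14 Alb introns was 1.45 near-copy reads per 1000. It was 0.95 over the 41 other junctions with at least 66055 reads and 1.1 over the 631 with at least 10000 reads. These others were taken by their reads and not matched to annotated introns. Flag A was set on 40 of the 41 and on 605 of the 631, against all 14 Alb introns. The Alb introns had a median of 250034 reads, and no junction outside the window exceeded 287851. Near-copies were thus not compared at equal depth. The middle of the distribution, from the first to the last quartile, was 0.844 to 1.74 for Alb and 0.7 to 1.3 and 0.687 to 1.7 for the others, so the ranges overlapped. The median number of near-copies per junction was 20.5 for Alb, 13 for the 41 and 7 for the 631.

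**Figure D5:**
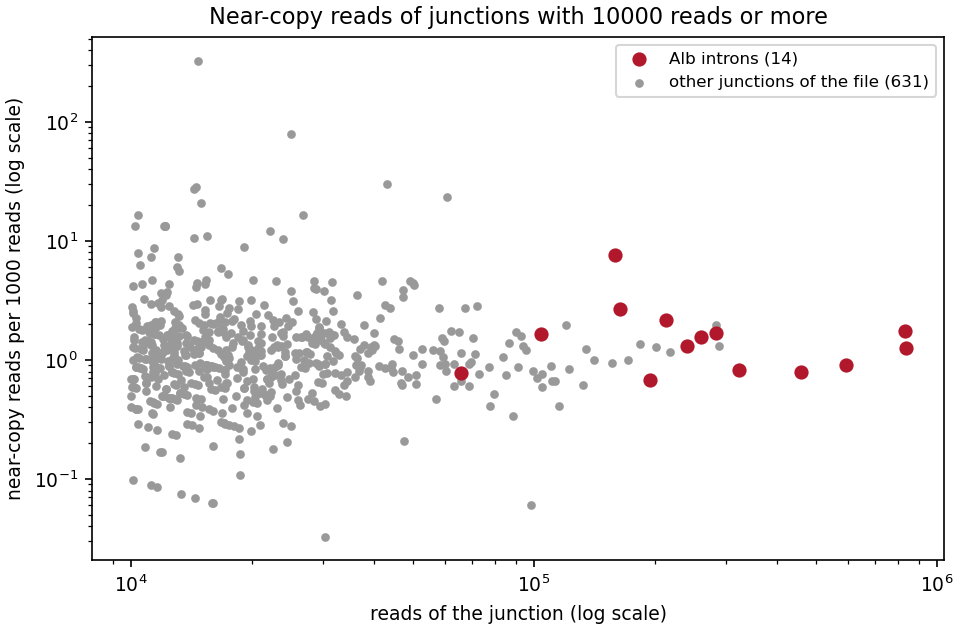
Near-copy reads per 1000 reads of the parent against the reads of the parent, both on log scales, for the 14 Alb introns (red) and the 631 other junctions with at least 10000 reads (grey). The Alb points lie between 0.68 and 7.69 per 1000, within the grey range of 0.0329 to 327.

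Exon skipping in Alb was rare. Junctions that joined a known Alb donor to a later Alb acceptor numbered 18, with 14 reads in R1 and 23 in R2, or 6.51 and 8.92 per 1000000 reads of the dominant junctions. Only 4 of the 18 were read in both libraries. The most read one skipped exon 13, which has 133 bases, with 4 reads in R1 and 7 in R2. Set against the mean of introns 12 and 13, that is 16.6 skips per 1000000 in R1 and 22.1 in R2.

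The skips left out runs of exons of several lengths. Runs of 4 exons were left out by 6 junctions with 6 reads in R1 and 5 in R2, more than for any other run length above a single exon. An example joined exon 2 to exon 7, with 2 reads and 1 read. All 6 removed a multiple of 3 bases, which keeps the reading frame, as do 9 of the 10 runs of 4 exons possible in Alb. Over all 18 skips, 12 removed a multiple of 3 bases, as do 36 of the 91 runs possible. Of the 18, 10 rested on 1 read each, and these shares are descriptions.

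Outside Alb, known sites were also joined in other combinations. Afm exon 8 was skipped by 0 reads in R1 and 4 in R2. In 5830473C10Rik, exon 2 was skipped by 9 reads in R1 and 1 in R2, and exon 1 was joined to exon 4 by 0 and 5. A pair of junctions ran from Alb into Afm over 60380 and 60594 bases, at the exons shown above. One joined Alb exon 2 to Afm exon 3, with 2 reads in R1 and 1 in R2, and the other Alb exon 4 to Afm exon 5, with 1 and 3 reads. Both kept the exon numbering of the family.

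Near-copies set aside, junctions with 1 known site numbered 77. Some near-copies also kept 1 known site, such as one at the usual end of Alb intron 13 with 249 reads in R1 and 311 in R2. The most read of the 77 ended at the start of Alb exon 2, with 24 reads in R1 and 10 in R2. It began 21 bases before the usual end of exon 1, at 90890019 in mm9. In exon 9, a pair of donors, from 90898576 and from 90898586, were joined to the usual start of exon 10 with 10 and 13 reads and with 15 and 15 reads. A donor in exon 12, from 90901622, was joined to exon 13 with 9 reads in R1 and 12 in R2. Of the junctions with a known upstream site, one left Afm exon 11 for an acceptor inside exon 12 at 90979366, with 7 and 10 reads. Another left Alb exon 11 and ended at 90901528, inside exon 12, with 10 and 5 reads. One from exon 13 ended at 90904140, inside intron 13, with 6 and 5 reads.

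A few junctions reached Alb from far upstream. A donor 13008 bases upstream of exon 1 was joined to a site within exon 1 that kept 116 of its 117 bases, by 4 reads in R1 and 8 in R2. The same donor was joined straight to exon 2 by 1 and 2 reads. A deposited contig of 108 bases, from 90876807 to 90876914 in mm9, ended at the base before this donor, at a level of 0.796, against 2600 for the contig that holds exon 1. A nearer site, 68 bases upstream of exon 1, was joined to exon 2 by 5 reads in R1 and 0 in R2.

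The largest class by number had no known site and was not a near-copy. It held 534 junctions and 6.57% of the rare reads, and 82 of them (15.4%) were read in both libraries. In 309 the ends lay in different Alb exons, which were neighbours in 177. In 98 both ends lay in the same Alb exon, 31 to 165 bases apart, and the most read of these lay in exon 7, from 90896403 to 90896476, with 21 reads in R1 and 17 in R2. The most read of the class ran from 90901166, in exon 11, to 90906744, downstream of Alb, with 25 and 23 reads. It ended within a contig of 20 bases at a level of 2.46.

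Beside the annotated introns, 82 rare junctions reached 20 reads, and 11 of them passed the test of R1 over R2 (13.4%), 1 higher and 10 lower in R1, against 27.8% of all junctions tested, 13.6% higher and 14.1% lower. The share was not compared at equal depth. Of the 11, 10 were near-copies. Their parents were Alb introns 3, 4, 5, 8, 11, 13 and 14, with log2 ratios from -0.52 to -0.04. These introns were among the 9 of the 14 Alb introns that were themselves lower in R1. The log2 ratios of the 10 near-copies spread more widely than those of the parents, from -6.312 to 1.395. The near-copies were not tested against their parents. A near-copy of intron 3, 1 base longer, had 0 reads in R1 and 41 in R2. A near-copy of intron 4 had 13 and 63 reads. The one higher in R1 was a near-copy of intron 14, with 36 reads in R1 and 14 in R2.

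The 31 minus-strand junctions held 65 reads in R1 and 87 in R2. Between Alb and Afm, where the Afp introns lie on the plus strand, there were 20 of them, with 56 and 72 reads. The most read one ran from 90928327 to 90929484, with 15 reads in each library. Of the 20, 11 shared the donor side at 90944626 and ran to 11 different acceptors, with 34 reads in R1 and 51 in R2, and 5 of the 11 were read in both libraries. Flag C, likewise unexplained, was set on 19 of these 20. It was set on 180 of the 1018 rare junctions and on 208490 of the 351855 junctions outside the window. Outside the window its share rose with reads, from 26.8% at 1 read to 98.5% from 50 reads. Within Alb, 7 minus-strand junctions held 2 and 8 reads. None of these 7 carried flag C and none was read in both libraries.

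The deposited contigs, stretches of continuous coverage, were counted in the same window, which held 109 of 411452 contigs, 65 on the plus strand and 44 on the minus strand. All 15 Alb exons were fully covered, by 5 contigs with levels from 915 to 4820, at places 9 to 57 of the list. Of the 15 Afm exons, 14 were fully covered, and levels ran from 1.82 to 39.5. Over the Afp introns found, 3 plus-strand contigs reached at most 0.382, while 15 minus-strand contigs reached up to 2.1. A minus-strand contig of 111 bases within Afm, from 90961935 to 90962045, had a level of 24.9.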

How the data were processed

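The authors deposited, on mm9, junctions and contigs of both libraries together, and, on mm10 with annotation M4 (per the notes deposited with the files), gene and transcript tables. No aligner or counting tool is named. Per the values, as the list has no header, the deposited junction read count is the sum of R1 and R2, written in each junction's label (other text). Beside it stand a reproducibility score and a whole-number score. The deposited contigs carry a signal level and a score. Per the file headers, the tables hold estimated counts, TPM and the percent of a gene per transcript.

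Here, introns were matched to GENCODE M21 (GRCm38) by flag A, length and order, and no coordinate was moved between builds. Coordinates are 1-based. Estimated counts were rounded for the tests. R1 was set over R2, and replicate 1 over replicate 2, with a two-sided exact binomial test (scipy 1.17.1), in features of 20 reads or more, with Benjamini-Hochberg adjustment over all of them. It was used in place of a quasi-likelihood test because 1 library stands on each side. Log2 ratios add 0.5 to both counts. Scaling factors came from edgeR 4.0.16 and DESeq2 1.42.0. The junction test was checked on simulated counts that held planted changes and counting error only. That check says nothing about spread between libraries beyond counting error. Of 43346 genes listed, 42462 had a name. The members and lists were chosen with earlier results of these data known. The rule for naming junctions took the dominant ones, the most read of each rare class and those nearest the 1% threshold. Others were named outside this rule. Among them are annotated introns of the other genes, junctions from far upstream of Alb and some rare junctions called between R1 and R2. Near-copies were defined after the junctions had been seen. Alternatives were other thresholds, scalings, minimum reads and each library alone.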

Additional observations from a re-analysis of the deposited data

How the results depend on the processing

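The number of dominant junctions was 14 at a threshold of 0.1% as well as 1%, and 6 at 5%. The 1018 rare junctions came to 636 with at least 2 reads, 284 with a read in each library, 216 with a reproducibility score of at most 0.1, and 629 to 673 with 1 library alone. Rare junctions that share a splice site with a dominant one numbered 150, and 425 when sites within 5 bases counted as shared, which takes in many near-copies. The 325 near-copies came to 170 when both ends had to lie within 5 bases, an alternative chosen after seeing the data, as were 10 and 40 bases. The ratio of the most to the least read dominant junction was 12.7 in the sum and 12.2 to 14.2 with 1 library alone. Of the other rare junctions, 11 were called, and 6 with a minimum of 50 reads, where fewer were tested. Intron 9 of Alb turned from 0.024 to -0.039 (log2) with DESeq2 size factors, and the gene Alb turned from 0.019 to -0.111 when scaled by total reads. The other 98 values tried kept their direction and call or stayed within 1.5 times, or within 1 SD for shares. Part of this was fixed in advance and says nothing about stability. A change of the minimum reads leaves a log2 ratio as it was. A share from 1 library alone always lies within 1 SD of the mean of 2 libraries. No paired analysis was possible because there is only 1 group, and R1 and R2 carry no replicate number. Depth limits single-read junctions, and 2 libraries give no estimate of spread between animals.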
